A study of Mus musculus with 4 samples.

Results

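The genes described here are 7 genes whose products bind RNA or steer splicing and whose mRNAs or activities are known to follow body temperature: *Cirbp*, *Rbm3*, *Srsf5*, *Srsf7*, *Clk1*, *Clk4* and *Tra2a*. They were taken by gene symbol from the liver TPM table (an abundance scaled to transcript length and to the library total), which lists 35739 genes, and all 7 were found. RNA-seq had been carried out on whole liver of littermate mice of 10 to 11 weeks on a mixed background that includes B6, kept on a normal diet. WT mice (replicates 2 and 3) were compared with *Usp21* KO mice (replicates 1 and 3), which gives 2 libraries per genotype. Each library is taken as 1 mouse, which the sources used here do not state. The KO mice lack exons 3 and 4 of *Usp21*, a ubiquitin protease gene, in all tissues after Cre-mediated excision, while the other exons remain. The hour at which each liver was collected is not given in the sources used here.

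*Cirbp* (cold-inducible RNA-binding protein) and *Rbm3* (RNA-binding motif protein 3) encode small glycine-rich RNA-binding proteins, and mild cooling of mammalian cells raises their mRNAs. In the liver of a mouse, their mRNAs are known to cycle over the day with body temperature, high in the cooler rest phase and low in the warmer active phase, when genes of the heat shock factor HSF1 are high. CLK1 and CLK4 are kinases that phosphorylate SR proteins (splicing factors rich in arginine and serine), and their activity is known to increase as temperature drops within the range of body temperature. SRSF5, SRSF7 and TRA2A are such substrates, which bind exons and control whether they are kept.

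The members lie on 7 chromosomes (GRCm38, GENCODE M21 annotation). *Cirbp* (ENSMUSG00000045193) covers chromosome 10 from 80165985 to 80172786, *Rbm3* (ENSMUSG00000031167) chromosome X from 8138975 to 8145880, *Srsf5* (ENSMUSG00000021134) chromosome 12 from 80945504 to 80950507 and *Srsf7* (ENSMUSG00000024097) chromosome 17 from 80200080 to 80207307. *Clk1* (ENSMUSG00000026034) covers chromosome 1 from 58410189 to 58424066, *Clk4* (ENSMUSG00000020385) chromosome 11 from 51261730 to 51281766 and *Tra2a* (ENSMUSG00000029817) chromosome 6 from 49243924 to 49264033. All 7 genes have at least 1 annotated transcript marked for nonsense-mediated decay (the pathway that removes mRNAs with an early stop codon) and at least 1 with a retained intron. Among the 9374 tested protein-coding genes, 30.0% have the former and 61.0% the latter. *Clk1* and *Clk4* have 7 annotated retained-intron transcripts each, whereas *Tra2a* has 2. The TPM of a gene adds all of its transcripts, so that productive and non-productive mRNA of a member cannot be told apart here.

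The promoters of *Cirbp*, *Srsf7*, *Clk4* and *Tra2a* are shown because each holds a motif that was searched for. Each window runs from 250 bases before to 50 bases after a RefSeq start site (GRCm38.p6), 5′ to 3′ on the strand of the gene, with the motif in capitals. Promoters of 5 members were matched in the RefSeq table, 6 windows in all, since *Cirbp* has 2.
*Cirbp* (chr10:80167589-80167888, forward strand): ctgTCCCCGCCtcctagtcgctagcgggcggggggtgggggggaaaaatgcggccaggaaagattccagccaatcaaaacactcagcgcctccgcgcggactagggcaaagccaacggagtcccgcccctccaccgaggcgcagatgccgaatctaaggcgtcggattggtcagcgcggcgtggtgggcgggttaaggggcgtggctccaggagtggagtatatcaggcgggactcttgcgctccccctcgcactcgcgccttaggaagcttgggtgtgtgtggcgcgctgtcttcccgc
*Srsf7* (chr17:80207256-80207555, reverse strand): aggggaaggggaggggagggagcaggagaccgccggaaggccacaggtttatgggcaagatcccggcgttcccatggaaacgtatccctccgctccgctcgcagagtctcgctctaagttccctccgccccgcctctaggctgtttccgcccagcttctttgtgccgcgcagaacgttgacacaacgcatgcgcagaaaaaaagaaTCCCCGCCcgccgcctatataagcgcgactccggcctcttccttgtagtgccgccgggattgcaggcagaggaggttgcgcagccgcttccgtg
*Clk4* (chr11:51262864-51263163, forward strand): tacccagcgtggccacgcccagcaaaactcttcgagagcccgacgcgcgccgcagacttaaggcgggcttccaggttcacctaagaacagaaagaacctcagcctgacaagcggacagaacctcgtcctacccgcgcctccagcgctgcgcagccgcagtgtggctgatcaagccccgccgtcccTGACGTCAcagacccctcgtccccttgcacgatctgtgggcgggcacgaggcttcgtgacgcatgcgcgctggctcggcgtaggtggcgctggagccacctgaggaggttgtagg
*Tra2a* (chr6:49264003-49264302, reverse strand): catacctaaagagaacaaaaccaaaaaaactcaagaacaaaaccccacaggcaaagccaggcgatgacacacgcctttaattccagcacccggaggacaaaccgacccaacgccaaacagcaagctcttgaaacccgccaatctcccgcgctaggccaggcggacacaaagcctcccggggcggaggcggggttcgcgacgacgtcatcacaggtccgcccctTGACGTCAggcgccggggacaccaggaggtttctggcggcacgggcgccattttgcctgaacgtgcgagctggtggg

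Both strands were searched for 5 motifs, which were chosen with these promoters in view. The mild-cold responsive element TCCCCGCC, first described in the *Cirbp* promoter, begins at position -247 relative to the start site in *Cirbp* and at -44 in *Srsf7*, and occurs in 5.38% of all 32851 promoter windows. The cAMP response element TGACGTCA begins at -65 in *Clk4* and at -27 in *Tra2a*, and occurs in 1.79% of the windows. The heat shock element searched as GAANNTTC (7.86% of windows), the E-box CACGTG (7.15%) and the D-box TTATGTAA (0.938%) were not found in the 6 windows of the members, which says only that these letters are absent there. None of the motifs overlapped another.

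*Usp21* itself was measured at 4.07 TPM (replicate 2) and 6.29 TPM (replicate 3) in the WT livers, against 1.64 TPM (replicate 1) and 2.93 TPM (replicate 3) in the KO livers, so that both KO values lay under the WT pair. Salmon gave between 12876 and 13620 genes a TPM above 0 per library. KO replicate 1 held the highest of the 4 values for 45.9% of the 9581 tested genes and for 4 of the 7 members. Across the tested genes the median difference was 0.15 on the log2 scale, KO over WT, and 0.04 after the libraries were scaled to an equal upper quartile. The differences of the members were therefore also set against the median of 0.15. Relative to it they were 1.48 for *Tra2a*, 1.17 for *Clk1*, 0.85 for *Srsf7* and 0.28 for *Clk4*. For *Cirbp*, *Srsf5* and *Rbm3* they were -0.17, -0.53 and -1.04. All 7 members passed the filter of a mean of at least 1 TPM.

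**Figure D1:**
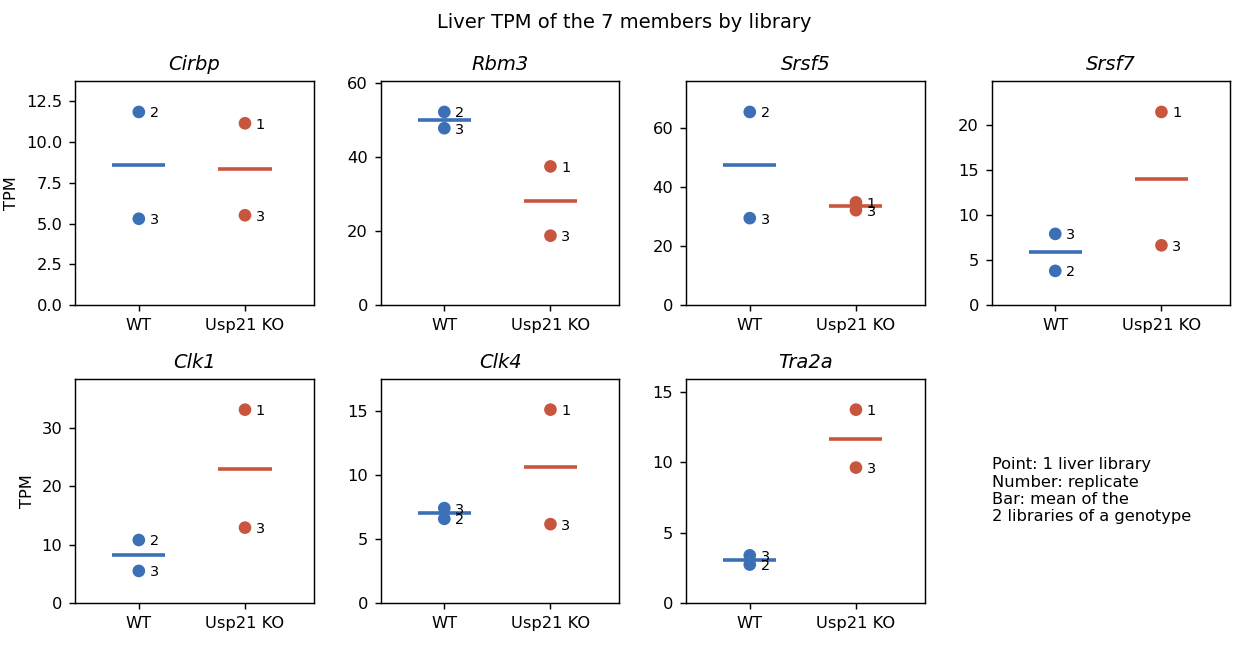
TPM of the 7 members (y axes, linear from 0) in WT and *Usp21* KO livers (x axes), with a point per library, its replicate number beside it and a bar at the mean of each genotype. The genotypes are separate for *Rbm3*, *Clk1* and *Tra2a* and overlap for the other 4 genes.

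The cold-inducible genes differed from each other. *Rbm3* was measured at 52.2 TPM (replicate 2) and 47.8 TPM (replicate 3) in the WT livers, against 37.5 TPM (replicate 1) and 18.8 TPM (replicate 3) in the KO livers. Both KO values lay under the WT pair, with 50.04 ± 3.11 TPM for WT, against 28.2 ± 13.2 TPM for KO (SD, n = 2 each). On the log2(TPM + 1) scale the difference was -0.89 (standard error, SE, 0.33), with an unadjusted p of 0.0396 and an adjusted p of 0.468 from limma with Benjamini-Hochberg adjustment over all tested genes. It was -1.04 relative to the median of all genes, -1.37 without KO replicate 1 and -0.40 without KO replicate 3, the library with the lowest value. Without moderated variances the unadjusted p of *Rbm3* from limma was 0.209. Of the 31-base stretches of *Rbm3* transcripts, 11.8% also occur in transcripts of other genes, *Rbm3-ps* among them, and 7.42% in genes averaging 1 TPM or more, so that a small part of its reads may have been divided differently. The antisense gene *Rbm3os* overlaps *Rbm3*, and the strand setting of salmon is not given in the sources used here.

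*Cirbp* was measured at 11.8 TPM (replicate 2) and 5.30 TPM (replicate 3) in the WT livers, against 11.1 TPM (replicate 1) and 5.51 TPM (replicate 3) in the KO livers. Each genotype held a library near 11 and a library near 5 TPM, and the groups overlapped. The means were 8.56 ± 4.62 TPM for WT, against 8.32 ± 3.98 TPM for KO (SD, n = 2 each). Its log2 fold change was -0.02 (SE 0.46, limma adjusted p = 0.989), and the 95% interval of the difference ran from -1.15 to 1.12, so that a change of 2-fold in either direction was not excluded. The sign turned when a library was left out, from -0.53 without WT replicate 3 to 0.50 without WT replicate 2. The TPM ratio of *Rbm3* to *Cirbp* within a library was 4.41 and 9.04 in WT and 3.37 and 3.41 in KO, lower in both KO libraries. This ratio was computed after the values had been seen.

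*Tra2a*, which encodes an SR-like splicing activator, had the clearest difference of the 7 genes. It was measured at 2.73 TPM (replicate 2) and 3.38 TPM (replicate 3) in the WT livers, against 13.7 TPM (replicate 1) and 9.63 TPM (replicate 3) in the KO livers. Both KO values lay over the WT pair, with 3.06 ± 0.462 TPM for WT, against 11.7 ± 2.91 TPM for KO (SD, n = 2 each), a ratio of means of 3.83. Its log2 fold change was 1.63 (SE 0.26, 95% interval 0.97 to 2.29), the 58th highest of all tested genes. Its unadjusted p of 0.00105 was the 34th lowest, and its adjusted p was 0.290 from limma, above the threshold of 0.05. On leaving out single libraries it stayed between 1.39 and 1.87, and with upper quartile scaling it was 1.52. The paralog *Tra2b* was at 10.6 and 15.8 TPM in the WT livers, against 24.4 and 16.04 TPM in the KO livers, and the ratio of *Tra2b* to *Tra2a* was 3.87 and 4.69 in WT and 1.77 and 1.67 in KO. *Tra2b* and the ratios within families were chosen after the values had been seen.

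*Srsf7* and *Srsf5*, which encode SR proteins that bind exonic enhancers, went in opposite directions by their means, and both overlapped between genotypes. *Srsf7* was measured at 3.81 TPM (replicate 2) and 7.92 TPM (replicate 3) in the WT livers, against 21.5 TPM (replicate 1) and 6.65 TPM (replicate 3) in the KO livers. KO replicate 1 was far above the other 3 libraries, and KO replicate 3 lay between the WT libraries. The log2 fold change of *Srsf7* was 1.00 (SE 0.57, limma adjusted p = 0.540), and it was 0.22 without KO replicate 1. *Srsf5* was at 65.6 and 29.6 TPM in the WT livers, against 34.9 and 32.3 TPM in the KO livers. WT replicate 2 was the high library, and both KO values lay between them. Its log2 fold change was -0.38 (SE 0.37, limma adjusted p = 0.705, 95% interval -1.32 to 0.55), and it was 0.18 without WT replicate 2. Of the 31-base stretches of *Srsf5*, 14.2% occur in transcripts of other genes, but 1.06% in genes averaging 1 TPM or more.

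The kinase gene *Clk1* was measured at 10.8 TPM (replicate 2) and 5.49 TPM (replicate 3) in the WT livers, against 33.1 TPM (replicate 1) and 12.9 TPM (replicate 3) in the KO livers. Both KO values lay over the WT pair, although KO replicate 3 was close to WT replicate 2. The means were 8.14 ± 3.75 TPM for WT, against 23.0 ± 14.3 TPM for KO (SD, n = 2 each). Its log2 fold change was 1.32 (SE 0.50), with an unadjusted p of 0.0414 and an adjusted p of 0.469 from limma. Leaving out KO replicate 1 gave 0.67 and leaving out KO replicate 3 gave 1.97, and the unadjusted p was 0.0552 with upper quartile scaling and 0.232 without moderated variances.

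*Clk4*, the closest relative of *Clk1* in the list, was at 6.56 and 7.39 TPM in the WT livers, against 15.1 and 6.14 TPM in the KO livers. KO replicate 1 was above and KO replicate 3 below the WT pair. The log2 difference was 0.43 (SE 0.41, limma adjusted p = 0.696, 95% interval -0.58 to 1.44), and it was -0.16 without KO replicate 1. The ratio of *Clk1* to *Clk4* was 1.64 and 0.742 in WT and 2.20 and 2.10 in KO. Transcripts of *Clk4* share 2.10% of their 31-base stretches with other genes and those of *Clk1* 1.01%.

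**Figure D2:**
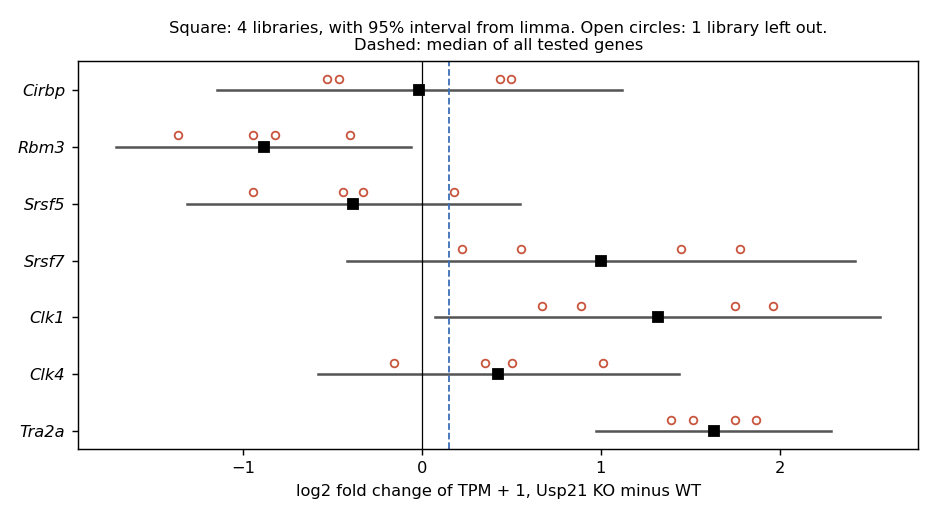
Log2 fold change of TPM + 1, *Usp21* KO minus WT (x axis), of each member (y axis): squares are the values from all 4 libraries with their 95% intervals from limma, open circles the values with 1 library left out, and the dashed line the median of all tested genes (0.15). All circles of *Tra2a* lie at or above 1.39, while those of *Cirbp*, *Srsf5* and *Clk4* lie on both sides of 0.

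Of the 7 members, 4 were higher in KO and 3 were lower by their mean, with a median of 0.43 compared with 0.15 over all tested genes, of which 66.7% were higher. The number with an adjusted p under 0.05 was 0 of 7, and 8 of all tested genes (0.0835%) reached it in limma. Unadjusted p-values under 0.05 came from 3 members. *Tra2a* and *Clk1* were higher, as were 8.45% of all tested genes, and *Rbm3* was lower, as were 2.04%. DESeq2 and edgeR, on the reads recovered from the second table, could test only *Cirbp*, *Rbm3*, *Srsf5* and *Clk4*. These had 0 to 5 reads per library, and 0 of them passed either threshold, which says little at such counts. *Srsf7*, *Clk1* and *Tra2a* had 0 reads there and were not tested. The groups did not overlap for 2 members that were higher (34.4% of all tested genes) and for 1 that was lower (10.9%). At least 2-fold higher on this scale were *Tra2a*, *Clk1* and *Srsf7*, or 3 members compared with 2.59% of all tested genes, and 0 members were at least 2-fold lower (1.1%). Under upper quartile scaling *Srsf7* was below this fold, at 0.88.

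By level, *Srsf5* (mean 40.6 TPM over the 4 libraries) and *Rbm3* (39.1) stood above *Clk1* (15.6), *Srsf7* (9.96), *Clk4* (8.79), *Cirbp* (8.44) and *Tra2a* (7.37). *Srsf5* and *Rbm3* changed places between libraries and do not differ beyond their spread, nor do neighbours among the other 5. *Tra2a* was the lowest member in both WT libraries, and *Cirbp* was the lowest in both KO libraries.

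Related genes were described as lists beside the members. These lists were chosen with earlier results of these data known. Their counts are to be read against those over all tested genes given above. Of all tested genes, 66.7% were higher, 34.4% were higher without overlap and 8.45% were higher with an unadjusted p under 0.05 in limma. Of the 9 tested genes among the other SR proteins and *Tra2b*, all 9 were higher in KO by their mean, 7 had no overlap, with KO above WT, and the median log2 fold change was 0.58. It was 0.29 without KO replicate 1. Unadjusted p-values under 0.05 came from 3 of them and an adjusted p under 0.05 for 0. *Srsf1*, the founding SR protein, was at 13.3 and 16.7 TPM in the WT livers, against 29.7 and 27.2 TPM in the KO livers (log2 fold change 0.89, SE 0.20, limma adjusted p = 0.449). *Srsf9* and *Srsf10* had log2 fold changes of 0.54 and 0.70. *Srsf11* was at 4.50 and 5.85 TPM in the WT livers, against 19.0 and 6.90 TPM in the KO livers, with KO replicate 1 high as in *Srsf7*.

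Among the 7 tested kinases of SR proteins other than the members, 6 were higher and 1 lower, with a median of 0.48. *Clk2* was at 1.29 and 1.20 TPM in the WT livers, against 4.70 and 2.72 TPM in the KO livers (log2 fold change 1.04, adjusted p = 0.464 from limma). *Srpk1*, a kinase that loads SR proteins for import into the nucleus, had a log2 fold change of 0.99, and *Dyrk1b* one of -0.62. *Clk2* and *Srpk1* had an unadjusted p under 0.05.

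The hnRNPs (RNA-binding proteins that often oppose SR proteins) and RBMX relatives held 25 tested genes, 21 of them higher and 4 lower (66.7% of all tested genes were higher), with a median of 0.35 compared with 0.15 over all. Unadjusted p-values under 0.05 came from 8, all higher (8.45% of all tested genes), and an adjusted p under 0.05 for 0. *Hnrnph1* was at 9.02 and 8.40 TPM in the WT livers, against 33.3 and 14.3 TPM in the KO livers (log2 fold change 1.24), and *Tardbp*, which encodes the splicing repressor TDP-43, was at 23.1 and 34.8 TPM in the WT livers, against 63.9 and 52.1 TPM in the KO livers (1.00). *Hnrnpm* and *Hnrnph3* had log2 fold changes of 0.82 and 0.93.

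The nonsense-mediated decay factors had 8 of 9 tested genes higher and a median of 0.48. *Upf2* and *Upf3b* had log2 fold changes of 1.09 and 0.78 with unadjusted p under 0.05, and *Smg5* had -0.51. Of the 4 tested cold shock domain proteins, which despite their name are a separate family from *Cirbp* and *Rbm3*, 3 were higher, with a median of 0.20. *Carhsp1* had the lowest value (-0.09). In these lists, too, an adjusted p under 0.05 was found for 0 genes. Upper quartile scaling brought the medians of these 5 lists nearer to 0, with 0.45 for the SR proteins, 0.35 for the kinases, 0.23 for the hnRNPs, 0.37 for the decay factors and 0.07 for the cold shock domain proteins.

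**Figure D3:**
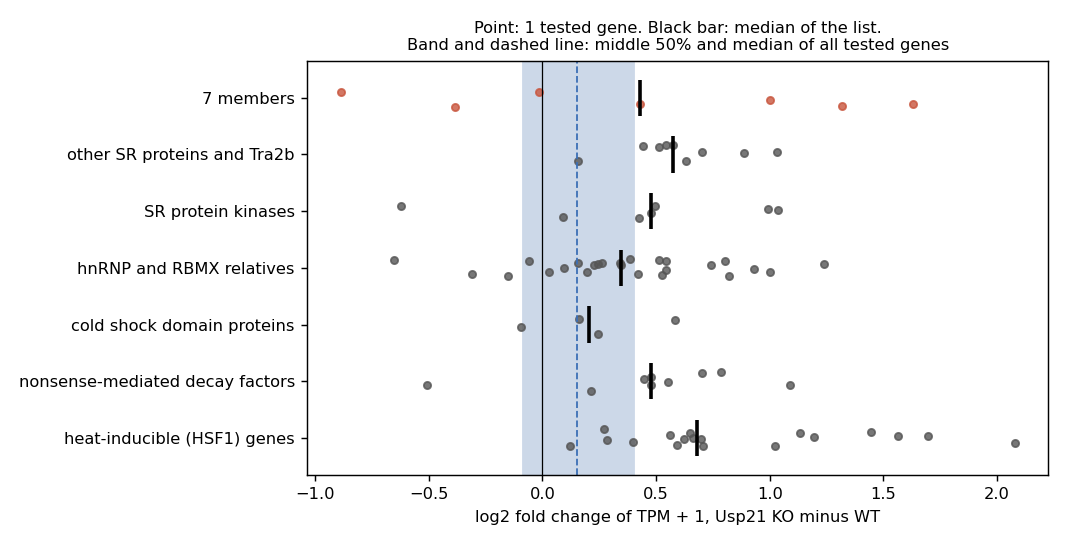
Log2 fold change of TPM + 1, *Usp21* KO minus WT (x axis), of each tested gene in each list (y axis), with black bars at the list medians, and the median (dashed) and middle 50% (band) of all tested genes. The members spread from -0.89 to 1.63, while all 9 tested SR proteins and all 18 tested heat-inducible genes lie above 0.

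The heat-inducible genes, a list of *Hsf1* itself and genes known as targets of HSF1, were set beside the cold-inducible pair. No daily rhythm of these genes was measured here. The list was chosen with earlier results of these data known. It holds *Hspa1b*, *Hspb1* and *Serpinh1*, which the paper names among its top upregulated genes from this RNA-seq. Its counts are therefore a description and not independent of these data. All 18 tested genes of this list were higher in KO by their mean, compared with 66.7% of all tested genes, and 16 were higher without overlap (34.4% of all). Of the 18, 11 had an unadjusted p under 0.05 (8.45% of all were higher with such a p) and 0 an adjusted p under 0.05 in limma. Their median log2 fold change was 0.68 (0.55 with upper quartile scaling). *Hsph1*, a co-chaperone of HSP70, was at 7.28 and 13.9 TPM in the WT livers, against 30.2 and 40.6 TPM in the KO livers (log2 fold change 1.70, SE 0.33, limma adjusted p = 0.402). *Chordc1*, which encodes an HSP90 co-chaperone, was at 4.34 and 6.38 TPM in the WT livers, against 15.9 and 19.4 TPM in the KO livers (1.56, SE 0.25, limma adjusted p = 0.290). *Hspa8* and *Hspa1b*, HSP70 genes, had log2 fold changes of 1.45 and 2.08.

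Mean log2(TPM + 1) of *Cirbp* and *Rbm3* minus that of the heat-inducible genes was 0.43 and -0.59 in WT replicates 2 and 3 and -0.80 and -2.02 in KO replicates 1 and 3. It was lower in both KO libraries, and WT replicate 3 and KO replicate 1 were close. The difference between the means of the genotypes was -1.34, compared with a standard deviation of 0.79 between libraries of a genotype, and it was -0.73 without KO replicate 3 and -1.94 without KO replicate 1. The heat-inducible part gave 0.89 of this difference and the cold-inducible part -0.45, the latter within the spread between libraries (0.55). The heat-inducible mean covered all 19 listed genes, with *Hspa1a*, which missed the filter. *Hspa1a* was at 0 and 0.111 TPM in the WT livers, against 0.707 and 2.11 TPM in the KO livers. Without *Hspa1a* and *Hspa1b* the difference between the genotypes was -1.25. The contrast rests on the same heat-inducible list, chosen with earlier results known.

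**Figure D4:**
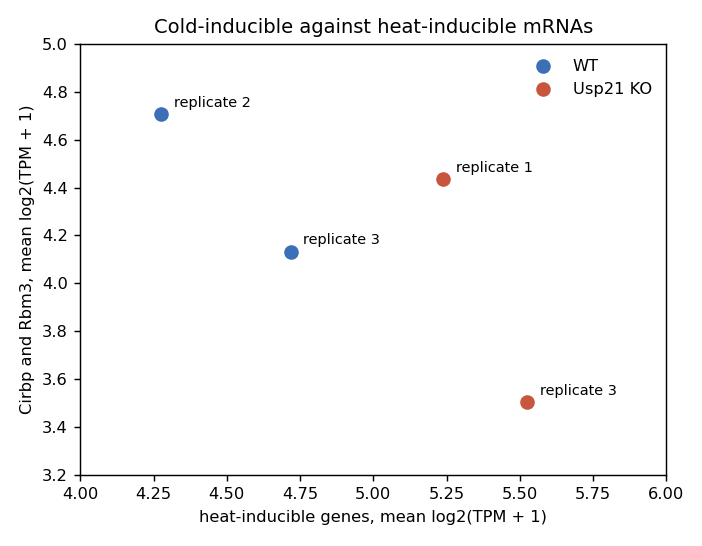
Mean log2(TPM + 1) of *Cirbp* and *Rbm3* (y axis) against mean log2(TPM + 1) of the heat-inducible genes (x axis), with a point per library. The KO libraries lie to the right of the WT libraries (5.24 and 5.53 compared with 4.28 and 4.72), while their heights overlap (4.43 and 3.50 compared with 4.71 and 4.13).

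The clock genes in phase with *Bmal1* (*Arntl*) had a median log2 fold change of 1.69 over 3 tested genes and those opposite to it -0.86 over 7 (-0.95 with upper quartile scaling). Of the latter, *Dbp*, a clock output gene, fell and was 1 of the 8 genes past the adjusted threshold. *Dbp* stood at 56.8 and 41.3 TPM for WT, against 4.73 and 4.97 TPM for KO (log2 fold change -3.08, SE 0.23, limma adjusted p = 0.0193). *Nr1d1*, a clock repressor gene named after its values were seen, was the 1 gene of that list with a higher mean in KO (log2 fold change 0.47, limma adjusted p = 0.748). *Bmal1* was at 0.241 and 0.243 TPM in the WT livers, against 5.89 and 4.05 TPM in the KO livers. Whether the livers differed in hour of collection or in body temperature was not tested. Neither is given per library in the sources used here, so that such a difference and the genotype cannot be told apart.

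The genes most like *Rbm3* over the 4 libraries, by the distance between centred log2(TPM + 1) profiles among 4025 genes averaging 10 TPM or more, were *Atg4d* (0.14), *Gar1* (0.16), *Slc1a2* (0.21), *Prlr* (0.28) and *Rdh16f2* (0.29). *Slc1a2*, a glutamate transporter gene, was at 38.8 and 41.5 TPM in the WT livers, against 33.4 and 16.7 TPM in the KO livers, with KO replicate 3 lowest as in *Rbm3*. The genes most like *Cirbp* were *Ptprk* (0.26), *Tsc2* (0.26), *Casp6* (0.27), *Nosip* (0.29) and ENSMUSG00000121445 (0.31). These names are a description over 4 libraries.

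Whole liver holds several cell types, and fewer cells of a type and less RNA per cell cannot be told apart in it. The hepatocyte markers *Alb*, *Ttr*, *Apoa1*, *Apoh*, *Fgb* and *Cps1* summed to between 53312 and 67285 TPM for WT, against 45427 and 55763 TPM for KO. The 7 Kupffer cell markers summed to 174 and 200 TPM in WT and to 93.2 TPM in KO replicate 1 and 240 TPM in KO replicate 3, so that the library with the highest *Clk1*, *Clk4*, *Srsf7* and *Tra2a* had the lowest Kupffer cell sum. The cholangiocyte markers summed to 14.6 and 15.9 TPM in the WT livers, against 37.9 and 24.5 TPM in the KO livers, with 2 of 5 markers higher in both KO libraries. The stellate cell markers summed to 54.6 and 45.5 TPM in the WT livers, against 84.1 and 63.4 TPM in the KO livers, with 2 of 6 higher in both. Both counts are near the 34.4% of all tested genes that were higher without overlap. The cholangiocyte sum was mostly *Spp1* (13.2 and 12.7 TPM in WT, 33.4 and 20.7 TPM in KO). The stellate cell sum was mostly *Dcn* (42.6 and 34.1 TPM in WT, 62.8 and 48.4 TPM in KO). Endothelial, red cell and lymphocyte sums overlapped between the genotypes, and the 4 pancreas markers were listed at 0. The adipocyte list reached 1426 to 1907 TPM through *Car3*, which hepatocytes also express, while *Plin1* and *Lep* were listed at 0. The part of these cells in the differences of the members was not tested.

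In the second table, of reads counted on alignments, 3 members (*Srsf7*, *Clk1* and *Tra2a*) were listed at 0 in all 4 libraries. *Srsf5* had 0 and 4 recovered reads in WT and 5 and 5 in KO, *Cirbp* 0 and 2 in WT and 0 and 1 in KO, *Rbm3* 0 and 0 in WT and 1 and 0 in KO, and *Clk4* 1 and 1 in WT and 0 and 0 in KO. A count of 0 allows up to 3 reads for counting error alone. Of 4013 genes averaging 10 TPM or more that this table also lists, 72.1% were at 0 in all 4 libraries, as *Rbm3* was in both WT libraries, and the cause was not tested. No difference of a member could be read from this table.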

How the data were processed

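Liver RNA-seq from an Illumina MiSeq was analysed, with 2 WT and 2 *Usp21* KO libraries, each taken as 1 mouse. The authors estimated transcript abundance with salmon (transcriptome named mm10) and deposited TPM per Ensembl gene (35739 genes). They also deposited HTSeq counts per gene divided by TMM-scaled library sizes (55335 genes, a count-based signal). Versions, annotation release and strand settings are not given in the sources used here. The log2 copies of both tables were not used. TPM keeps no depth. In the deposited count-based signal 100% of values were whole reads within 0.02 reads, which gave 102898 to 148164 reads per library.

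The members and lists were chosen with earlier results of these data known. The 9581 genes averaging 1 TPM or more were tested on log2(TPM + 1) with limma 3.58.1 (lmFit, eBayes with trend, two-sided, Benjamini-Hochberg; prior degrees of freedom 3.62), with genotype alone in the model. P-values measure the spread between these libraries only. With 2 against 2 an exact permutation test cannot go below 0.333. Such fold changes understate those of low genes. Alternatives were pseudocounts 0.1 and 5, other filters and scalings, no moderation, the count-based table with limma, edgeR 4.0.16 (quasi-likelihood) and DESeq2 1.42.0 on recovered reads, and each library left out. The fits were tested on simulated data with 200 changed genes. For limma the spreads were shuffled over genes, so that a dependence of spread on level was not kept. At an adjusted p under 0.05 limma recovered 0% of those changed by 1 on the log2 scale and 76.5% of those changed by 3. At 3, edgeR recovered 100% and DESeq2 90.5%, among genes with a mean of at least 5 reads. These reads were simulated with a common dispersion for all genes, and no member reached such a mean. A lack of adjusted p-values under 0.05 in limma therefore does not exclude a change of 2-fold. Genes named from the lists were up to 4 each, by unadjusted p under 0.05 and then the highest and lowest log2 fold change. Some genes that this rule names are not reported here. Coordinates and transcripts came from GENCODE M21 (GRCm38; 35126 TPM gene identifiers found), promoters from RefSeq (GRCm38.p6). R 4.3.3 and Python 3.11.15 were used.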

Additional observations from a re-analysis of the deposited data

How the results depend on the processing

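No paired analysis was possible, because the sources used here do not say which WT and KO mice form pairs. A shared replicate number, as in replicate 3 of both genotypes, is not stated to mark a pair. The directions of *Rbm3*, *Srsf7*, *Clk1* and *Tra2a* were the same under every alternative run on the TPM values. The number of members past the adjusted threshold was 0 throughout, which says little of stability with 2 libraries per genotype, and *Srsf7*, *Clk1* and *Tra2a* had no reads for edgeR or DESeq2 to test. With 1 library left out, the lone library of a genotype is assumed to vary like the others. The log2 fold changes then ranged from -0.53 to 0.50 for *Cirbp*, -0.95 to 0.18 for *Srsf5* and -0.16 to 1.01 for *Clk4*, members with non-overlapping groups from 4 to 6 (3 with all libraries, more by construction, with fewer libraries), members with an unadjusted p under 0.05 from 2 to 4, and such genes overall from 542 to 1188. The list medians ranged from 0.29 to 0.79 for the other SR proteins, 0.38 to 0.52 for the kinases, 0.20 to 0.56 for the hnRNPs, 0.055 to 0.35 for the cold shock domain proteins and 1.33 to 2.14 for the clock genes in phase with *Bmal1*.

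On the count-based table, limma on CPM, edgeR and DESeq2 gave log2 fold changes of 1.47, 2.27 and 1.26 for *Rbm3*, 2.71, 1.15 and 1.10 for *Srsf5* and -3.23, -3.22 and -2.57 for *Clk4*, all from at most 5 reads per library and opposite in sign to the TPM. Members with an unadjusted p under 0.05 numbered 0 there and 1 without moderation (3 on the TPM). Such genes overall numbered 213, 168 and 21 there, or 639 with a mean of at least 5 TPM (1005 on the TPM). These overall counts come from unlike numbers of genes, with 9581 tested on the TPM and 5146 above 0 in the count-based table. A mean of at least 5 TPM also leaves fewer genes to test. Limma on CPM gave 1 member with non-overlapping groups and a contrast of cold- minus heat-inducible genes of -0.39. Its list medians were 1.47 (other SR proteins), 0.73 (kinases), 0.061 (hnRNPs), 1.47 (cold shock domain proteins) and 0.98 (clock genes opposite to *Bmal1*). They cover only the listed genes above 0 in this table. Both medians of 1.47 equal the value of *Rbm3*, which rests on 1 read in KO replicate 1, so that they say little of the lists.

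With a pseudocount of 5 the medians were 0.28 (kinases), 0.27 (decay factors), 0.92 and -0.41 (clock genes in phase and opposite), and with 0.1 the latter were 1.85 and -1.14. Upper quartile scaling gave 0.35 (kinases) and 0.073 (cold shock domain proteins). No filter gave 1.47 and -0.66 (clock), and a mean of at least 5 TPM 0.73 (kinases), 0.21 (decay factors) and -0.62 (clock, opposite). Part of these shifts follows from the settings. A mean of at least 5 TPM left only *Clk3* (0.48) and *Srpk1* (0.99) among the kinases. Among the decay factors it left *Upf1*, *Upf3a* and *Smg5*, and the median was that of *Upf3a*. No filter added *Npas2* to the clock genes in phase, and *Per2*, *Per3* and *Bhlhe41* to those opposite. A larger pseudocount shrinks the log2 fold changes of low genes by construction. The cause of the other shifts was not tested. Leaving out *Hspa1a* and *Hspa1b*, near-identical genes, chosen after seeing the data, gave a contrast of -1.25.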
